A study of Mus musculus with 6 samples.

Results

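Messenger RNA levels of 10 human factors that end translation or free stuck ribosomes were examined in A375 cells given guides against YAE1 or ABCE1. The members were set by a list of gene identifiers, drawn up with earlier results of these data known. They are ETF1 (ENSG00000120705) and GSPT1 (ENSG00000103342) for termination, PELO (ENSG00000152684) and HBS1L (ENSG00000112339) for rescue, ZNF598 (ENSG00000167962) and ASCC3 (ENSG00000112249) for collided ribosomes, LTN1 (ENSG00000198862) and NEMF (ENSG00000165525) for ribosome quality control, and MCTS1 (ENSG00000232119) and DENR (ENSG00000139726) for recycling. All 10 were found, each on 1 row, among 62492 rows of the table, and all 10 were among the 12578 genes tested.

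A375 is an established human melanoma line. Its cells were transduced with lentivirus that carries Cas9 and a guide RNA, and RNA was taken 7 days after selection in puromycin at 10 µg/mL. The groups were YAE1 guides (2 libraries, labelled a Yae1 and a Yae2 knockout in the genotype field), ABCE1 guides (2 libraries, labelled Abce1 and Abce2) and control guides against LacZ or Luciferase (2 libraries, labelled wild type). Groups were taken from the titles. All groups, controls included, carried Cas9 and were selected with puromycin, and the labels describe no isolated clones. Whether the paired libraries of each group came from different guides or from separate cultures is not stated, and a p-value here reflects the scatter of the libraries alone, which could be technical. The labels' organism is Mus musculus, whereas the cell type is given as human and every identifier is a human Ensembl one.

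When a ribosome reaches a stop codon, the release factor eRF1 (from ETF1) enters it with the GTPase eRF3 (from GSPT1), and ABCE1 then splits the subunits. On a ribosome that has stalled without a stop codon, Pelota (from PELO) and the GTPase HBS1L take the place of the release factors, again ahead of ABCE1. YAE1 is known as an adaptor for placing the iron-sulfur clusters of ABCE1. ZNF598 marks collided ribosomes with ubiquitin, ASCC3 is a helicase that pulls them apart, NEMF and LTN1 act on the large subunit left with an unfinished chain, and MCTS1 with DENR clears the small subunit after splitting.

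Each library held 15713011 to 18399718 fragments assigned to genes, worked out from the steps between the deposited FPKM values (fragment numbers divided by gene model length and by the library's assigned total). The 10 members rested on at least 447.5 fragments in every library, NEMF being the lowest and ETF1 the highest at up to 12649, so counting error was at most 4.73% and for ETF1 0.986%. Across tested genes, r was 0.992 to 0.994 within a group and 0.942 to 0.98 between groups. The rows of the targeted genes were not analysed here, so the extent of editing was not checked. In bulk RNA, fewer cells that express a gene and less of its RNA per cell cannot be told apart. GSPT1 and MCTS1 have closely similar retrocopies and PELO lies inside another gene, ITGA1. How shared fragments were assigned is not given in the sources used here, so the levels of these 3 genes are uncertain to that extent.

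On the FPKM scale, which divides by gene model length, ETF1 RNA was the most abundant of the 10 in every group. With control guides it averaged 142 ± 0.486 FPKM (SD, n = 2), above 98.3% of the tested genes. DENR and GSPT1 came next at 62 ± 0.277 and 43.1 ± 0.179 FPKM with control guides. ASCC3, PELO and LTN1 followed at 13.9, 13.6 and 12.9 FPKM, and ASCC3 overlapped PELO and PELO overlapped LTN1 between their libraries. ZNF598 (10.7 FPKM), MCTS1 (10.1 FPKM) and HBS1L (6.88 FPKM) stood apart from their neighbours in this order, and NEMF was last at 5.48 ± 0.317 FPKM. In the guide-treated groups PELO moved above ASCC3 and LTN1 without overlap, at 19.6 FPKM with YAE1 guides and 23.8 FPKM with ABCE1 guides. With ABCE1 guides ASCC3 overlapped LTN1. With YAE1 guides ASCC3, LTN1 and MCTS1 overlapped each other.

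**Figure D1:**
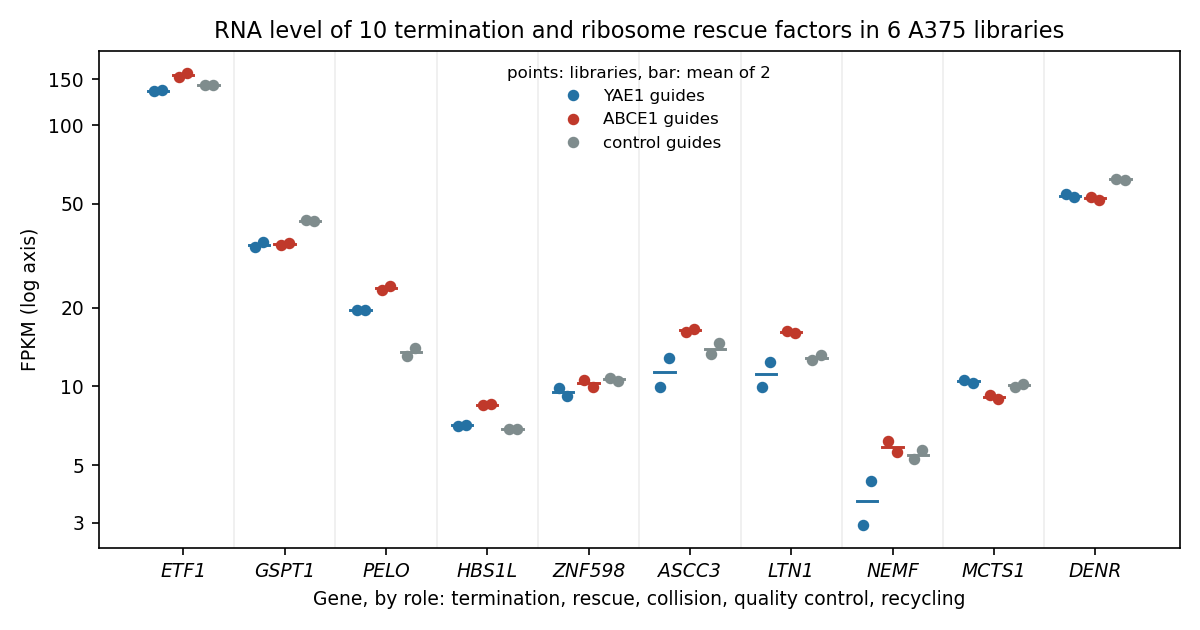
FPKM of each factor on a log axis, with a point per library and a bar at the mean of 2 libraries for YAE1 guides, ABCE1 guides and control guides. PELO sits higher in all 4 libraries with YAE1 or ABCE1 guides (19.6 to 24.2 FPKM) than in the controls (13.1 and 14 FPKM), while GSPT1 and DENR sit lower.

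Against control guides, 3 members kept a call in 1 direction with both sets of guides: PELO was higher and GSPT1 and DENR were lower. These calls held in all 14 alternative settings of both comparisons. The settings are not separate support: fitting only the 4 libraries compared, or leaving out a library of the third group, changes the spread but not the estimate. Both comparisons use the same 2 control libraries, so they are not independent. How many of all tested genes were called in the same direction in both was not counted. The 3 members therefore cannot be set against a background. With ABCE1 guides 4 of the 10 members were called higher and 2 lower, where the table as a whole had 37.5% of tested genes higher and 20.4% lower (limma, adjusted p under 0.05). These member counts lie near those backgrounds. With YAE1 guides 1 member was called higher and 3 lower, where 34.2% of tested genes were higher and 17.6% lower. The median log2 change of the 10 members was 0.11 with ABCE1 guides, beside 0.10 for all tested genes, and -0.17 with YAE1 guides, beside 0.10. Centring on the library's median gene moved the median change by -0.14 with ABCE1 guides and by -0.10 with YAE1 guides, which matters for members with small changes.

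PELO showed the widest rise of the set. It had 19.6 and 19.6 FPKM with YAE1 guides, 23.4 and 24.2 FPKM with ABCE1 guides, and 13.1 and 14 FPKM with control guides. The 3 groups did not overlap, with ABCE1 guides highest and control guides lowest. Relative to control guides PELO rose 1.75-fold with ABCE1 guides (log2 change 0.77 ± 0.05 SE, limma adjusted p = 5.5e-05) and 1.44-fold with YAE1 guides (0.50 ± 0.05, limma adjusted p = 0.00039). Less the median of all tested genes, its log2 changes were 0.67 and 0.40. PELO is known as the partner that recognises a ribosome whose decoding site is empty. Its change with ABCE1 guides was above that of 92% of tested genes, and with YAE1 guides above 86.5%. Between YAE1 and ABCE1 guides its log2 difference was -0.27 (95% interval -0.39 to -0.15, limma adjusted p = 0.0098). That difference missed the threshold without ABCE1 guides replicate 2, at -0.24 and an adjusted p of 0.062, the highest of its 14 alternatives, whose lowest was 0.002.

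HBS1L, the GTPase that delivers Pelota, changed less than PELO. It had 7.03 and 7.14 FPKM with YAE1 guides, 8.48 and 8.53 FPKM with ABCE1 guides, and 6.88 and 6.88 FPKM with control guides. The ABCE1 libraries stood above all others, and the YAE1 libraries lay just above the controls. HBS1L rose 1.24-fold with ABCE1 guides (log2 change 0.27 ± 0.05, limma adjusted p = 0.0037), which is 0.17 above the median of all tested genes. With libraries centred on the median gene this call was lost (0.13, limma adjusted p = 0.06, where its 14 alternatives ran from 0.00033 to 0.06). With YAE1 guides the change was 0.04 (95% interval -0.08 to 0.16, limma adjusted p = 0.56), and it was -0.06 with centring. The difference between YAE1 and ABCE1 guides passed (-0.23 ± 0.05, limma adjusted p = 0.015), but not without ABCE1 guides replicate 1 (-0.24, limma adjusted p = 0.072) or ABCE1 guides replicate 2 (-0.23, limma adjusted p = 0.075). Its 14 alternatives ran from 0.0025 to 0.075.

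Of the termination pair, GSPT1 fell with both sets of guides. It had 34.1 and 35.6 FPKM with YAE1 guides, 34.9 and 35.4 FPKM with ABCE1 guides, and 43.2 and 42.9 FPKM with control guides. All 4 libraries with YAE1 or ABCE1 guides lay below the controls, and the 2 treated groups overlapped. The level fell by 19% with YAE1 guides (log2 change -0.30 ± 0.04, limma adjusted p = 0.0015) and fell by 18.4% with ABCE1 guides (-0.29 ± 0.04, limma adjusted p = 0.0013). Changes lower than those of GSPT1 were found in 14% of tested genes with YAE1 guides and in 16.2% with ABCE1 guides. For GSPT1, YAE1 and ABCE1 guides differed by -0.01 (95% interval -0.11 to 0.09, limma adjusted p = 0.86).

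ETF1, which encodes the factor that reads the stop codon, did not follow GSPT1. ETF1 had 135 and 136 FPKM with YAE1 guides, 153 and 158 FPKM with ABCE1 guides, and 142 and 142 FPKM with control guides. No group overlapped another, and the order ran from YAE1 guides at the bottom through the controls to ABCE1 guides at the top. With ABCE1 guides the log2 change was 0.13 ± 0.04 (limma adjusted p = 0.021), close to the 0.10 of all tested genes. This call depended on the scaling: the change was -0.01 with centring (limma adjusted p = 0.86) and 0.26 with quantile normalization, and adjusted p over 14 alternatives ran from 0.00094 to 0.86. The same call was lost without either control library or either ABCE1 library, with adjusted p from limma of 0.11, 0.097, 0.06 and 0.14 for control guides replicates 1 and 2 and ABCE1 guides replicates 1 and 2 in turn, and with no filter on low values (0.053). With YAE1 guides ETF1 changed by -0.07 (95% interval -0.15 to 0.02, limma adjusted p = 0.17). After centring it was called lower (-0.16, limma adjusted p = 0.013, where its 14 alternatives ran from 0.013 to 0.39). Between YAE1 and ABCE1 guides the difference was -0.20 ± 0.04 (limma adjusted p = 0.0098), lost without ABCE1 guides replicate 2 (-0.18, limma adjusted p = 0.071, the highest of 14 alternatives from 0.0023).

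DENR fell with both sets of guides, whereas its partner MCTS1 did not pass against control guides. DENR had 54.4 and 53 FPKM with YAE1 guides, 53.1 and 51.9 FPKM with ABCE1 guides, and 62.2 and 61.8 FPKM with control guides. Both treated groups lay below the controls and overlapped each other. The log2 change was -0.20 ± 0.04 with YAE1 guides (limma adjusted p = 0.0052) and -0.24 ± 0.04 with ABCE1 guides (limma adjusted p = 0.0023), and the groups differed by 0.03 (95% interval -0.06 to 0.13, limma adjusted p = 0.56). Changes lower than those of DENR were found in 19% of tested genes with YAE1 guides and in 19.2% with ABCE1 guides. DENR and MCTS1 are known to work as a dimer that removes the last transfer RNA from the small subunit and that also allows reinitiation.

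MCTS1 had 10.6 and 10.3 FPKM with YAE1 guides, 9.28 and 8.94 FPKM with ABCE1 guides, and 9.99 and 10.2 FPKM with control guides. The ABCE1 libraries were the lowest and the YAE1 libraries the highest, with no overlap. Its log2 change was 0.05 with YAE1 guides (95% interval -0.07 to 0.17, limma adjusted p = 0.46) and -0.13 with ABCE1 guides (95% interval -0.25 to -0.01, limma adjusted p = 0.062). With ABCE1 guides it was called lower after centring (-0.27, limma adjusted p = 0.0047), after quantile normalization (-0.26, limma adjusted p = 0.0065) and with voom on fragment numbers (-0.15, limma adjusted p = 0.039), while its alternatives as a whole ran from 0.0047 to 0.24. MCTS1 was the only member called higher with YAE1 than with ABCE1 guides (0.18 ± 0.05, limma adjusted p = 0.035), a call lost in 8 of 14 alternatives, among them each of 5 that left out 1 library: control guides replicate 1 or 2 (0.18, limma adjusted p = 0.067 for both), ABCE1 guides replicate 1 (0.20, 0.094) or 2 (0.16, 0.16), and YAE1 guides replicate 1 (0.16, 0.1).

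**Figure D2:**
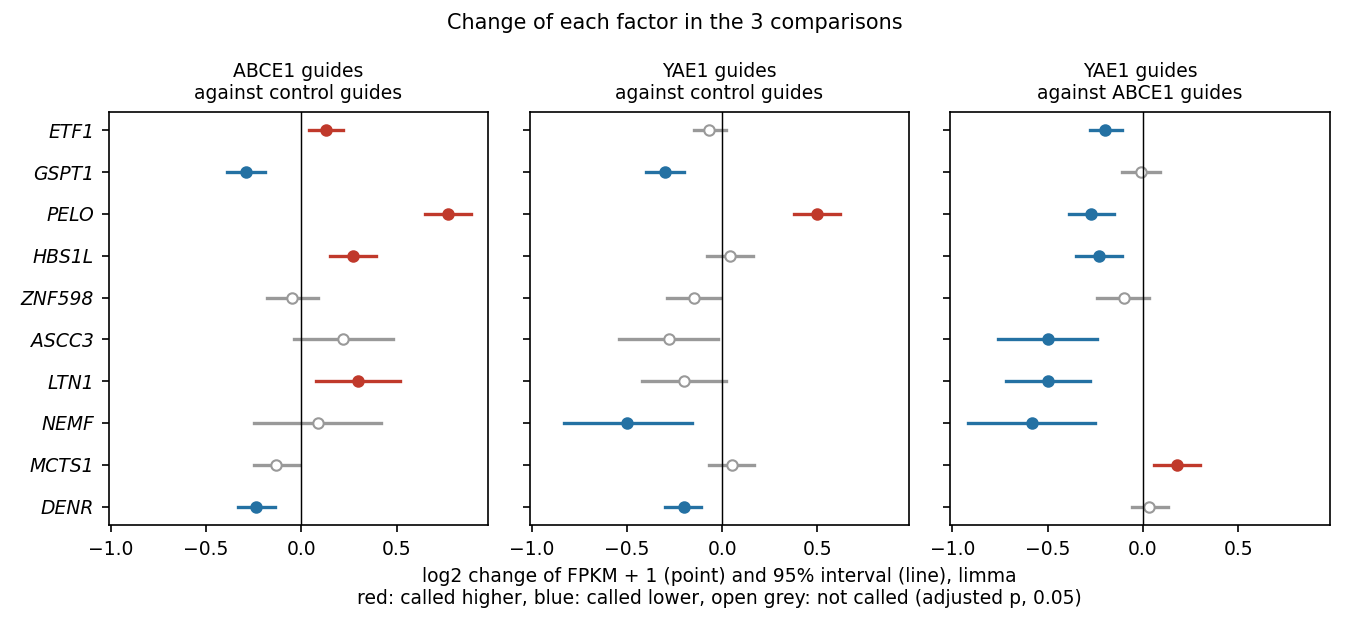
Log2 change of FPKM + 1 for each factor (point) with its 95% interval from limma (line), in 3 panels: ABCE1 guides against control guides, YAE1 guides against control guides, and YAE1 guides against ABCE1 guides. Red points were called higher, blue points lower and open grey points neither, and only PELO is red in both panels against control guides.

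ASCC3, LTN1 and NEMF were each lower with YAE1 than with ABCE1 guides. Between these groups 1 member was called higher and 6 lower, where 15.3% of tested genes were higher and 18.7% lower, and the median log2 difference of the 10 members was -0.22 beside -0.01 for all tested genes. Most of these member calls were lost without ABCE1 guides replicate 1 or without ABCE1 guides replicate 2. Far fewer of all tested genes were called in those fits too. The 3 genes had the members' lowest differences: -0.58 ± 0.14 for NEMF (limma adjusted p = 0.021), -0.50 ± 0.09 for LTN1 (limma adjusted p = 0.0097) and -0.50 ± 0.11 for ASCC3 (limma adjusted p = 0.016). Differences lower than these were found in 3.83%, 5.71% and 5.66% of tested genes for NEMF, LTN1 and ASCC3. In these 3 genes YAE1 guides replicate 1 lay well below YAE1 guides replicate 2, as described next, and the part of that library in the result is given with each value.

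LTN1, the ligase known as Listerin that tags unfinished chains on the large subunit, had 9.99 and 12.4 FPKM with YAE1 guides, 16.3 and 16 FPKM with ABCE1 guides, and 12.6 and 13.2 FPKM with control guides. The ABCE1 libraries were above and the YAE1 libraries below the controls, although YAE1 guides replicate 2 was close to them. With ABCE1 guides LTN1 rose 1.25-fold (log2 change 0.30 ± 0.09, limma adjusted p = 0.03). That call was lost in 7 of 14 alternatives, whose adjusted p ran from 0.0025 to 0.16: with centring (0.16), with quantile normalization (0.18), with no filter, and without control guides replicate 1 (0.26), control guides replicate 2 (0.33), ABCE1 guides replicate 1 (0.28) or ABCE1 guides replicate 2 (0.31). With only the 4 ABCE1 and control libraries in the fit, the change with ABCE1 guides was 0.30 (limma adjusted p = 0.0029). That fit leaves out the gap within the YAE1 pair, which otherwise enters the spread. With YAE1 guides the change was -0.20 (95% interval -0.42 to 0.02, limma adjusted p = 0.11). It was -0.06 without YAE1 guides replicate 1 and -0.34 without replicate 2, the extremes of its 14 alternatives.

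NEMF binds the same large subunit ahead of LTN1 and had 2.94 and 4.35 FPKM with YAE1 guides, 6.16 and 5.6 FPKM with ABCE1 guides, and 5.26 and 5.7 FPKM with control guides. The YAE1 libraries were below all others and lay far from each other, while the ABCE1 and control libraries overlapped. With YAE1 guides NEMF fell by 33.4% (log2 change -0.50 ± 0.14, limma adjusted p = 0.024). The size moved with the library left out. It was -0.28 without YAE1 guides replicate 1 and -0.72 without YAE1 guides replicate 2. With 1 YAE1 library left, the gap within that pair drops out of the spread. These fits therefore cannot show whether the call holds. Without control guides replicate 1 or 2 the change was -0.55 and -0.45 and missed the threshold (limma adjusted p = 0.065 and 0.1), as it did with no filter on low values (0.12, where the lowest of 14 was 0.00085). With ABCE1 guides the change was 0.09 (95% interval -0.25 to 0.42, limma adjusted p = 0.62), and -0.05 with centring or quantile normalization.

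ASCC3 had 9.96 and 12.8 FPKM with YAE1 guides, 16.2 and 16.6 FPKM with ABCE1 guides, and 13.3 and 14.6 FPKM with control guides. As for LTN1, the ABCE1 libraries lay above and the YAE1 libraries below the controls, without overlap. Neither change from control passed: 0.22 with ABCE1 guides (95% interval -0.04 to 0.48, limma adjusted p = 0.12) and -0.28 with YAE1 guides (95% interval -0.54 to -0.02, limma adjusted p = 0.071). The fit takes the spread of a gene from all 6 libraries, so the gap within the YAE1 pair also enters the ABCE1 interval. With ABCE1 guides ASCC3 was called higher in 4 of 14 alternatives, whose adjusted p ran from 0.019 to 0.52. Among the 4 was the fit of only the 4 ABCE1 and control libraries (0.22, limma adjusted p = 0.019). With YAE1 guides it was called lower in 6 of 14, which ran from 0.0055 to 0.26, among them the fit with a replicate block (-0.28, limma adjusted p = 0.034). Without YAE1 guides replicate 2, also among the 6, the change was -0.44, and without YAE1 guides replicate 1 it was -0.11. With 1 YAE1 library left, the gap within that pair drops out of the spread, so these fits cannot show whether a call holds.

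Between its 2 libraries the YAE1 group had an uneven spread in these 3 genes. YAE1 guides replicate 1 held 0.676 times the level of replicate 2 for NEMF, 0.777 times for ASCC3 and 0.806 times for LTN1. These gaps were wider than those of 96.7%, 93.8% and 91.3% of tested genes between the same libraries, whose median gap was 0.09 on the log2 scale. The other 7 members had ratios from 0.957 to 1.07 there. The library totals were 16815388 and 17065739 fragments, and the cause of the gap was not tested. Without YAE1 guides replicate 1 the differences from ABCE1 guides were -0.36 for NEMF, -0.35 for LTN1 and -0.33 for ASCC3. Without YAE1 guides replicate 2 they were -0.80, -0.64 and -0.67. With 1 YAE1 library left, the gap within that pair drops out of the spread, so these fits cannot show whether the calls hold. The calls were lost without ABCE1 guides replicate 1 for NEMF (-0.52, limma adjusted p = 0.1), LTN1 (-0.48, 0.054) and ASCC3 (-0.52, 0.066), and without ABCE1 guides replicate 2 for NEMF (-0.64, 0.066) and ASCC3 (-0.48, 0.075). The highest adjusted p over the 14 alternatives was 0.11 for NEMF, 0.059 for LTN1 and 0.087 for ASCC3, each with no filter on low values.

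ZNF598, the ubiquitin ligase that senses collisions, passed no comparison. It had 9.83 and 9.21 FPKM with YAE1 guides, 10.6 and 9.97 FPKM with ABCE1 guides, and 10.8 and 10.5 FPKM with control guides. The YAE1 libraries were the lowest, and the ABCE1 libraries overlapped the controls. The log2 change was -0.15 with YAE1 guides (95% interval -0.29 to -0.01, limma adjusted p = 0.067) and -0.05 with ABCE1 guides (95% interval -0.18 to 0.09, limma adjusted p = 0.51). After centring both were called lower, at -0.25 (limma adjusted p = 0.014) and -0.19 (0.035), and after quantile normalization likewise at -0.23 (0.018) and -0.18 (0.038). Over all 14 alternatives the adjusted p ran from 0.014 to 0.23 with YAE1 guides and from 0.035 to 0.95 with ABCE1 guides.

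**Figure D3:**
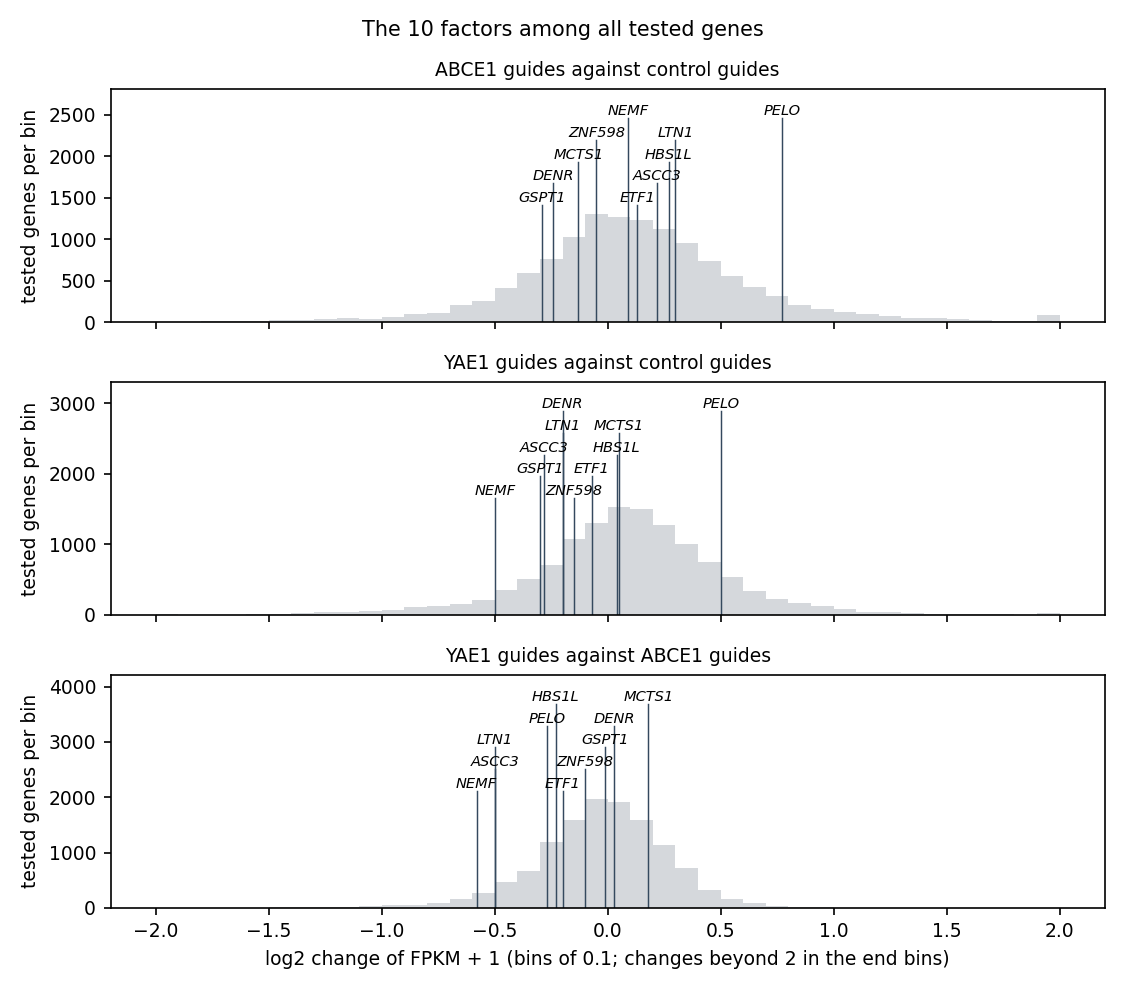
Number of tested genes (vertical axis) in bins of 0.1 of the log2 change of FPKM + 1 (horizontal axis) for the 3 comparisons, with a line at each of the 10 factors. PELO stands in the right flank in both comparisons with control guides, NEMF in the left flank with YAE1 guides, and NEMF, LTN1 and ASCC3 in the left flank of YAE1 against ABCE1 guides.

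Ratios between partners within a library do not depend on a scaling factor common to the whole library. Quantile normalization can shift them: with ABCE1 guides the log2 change of ETF1 went from 0.13 to 0.26, while GSPT1 stayed at -0.29. The ratios are given as values of the deposited FPKM and were not tested. An exact permutation of 2 libraries against 2 cannot go below p = 0.333, and no model was fitted to the ratios. The PELO to HBS1L ratio was 2.78 and 2.75 with YAE1 guides, 2.75 and 2.84 with ABCE1 guides, and 1.91 and 2.04 with control guides. The 2 treated groups overlapped and both stood above the controls, although each gene's level in the YAE1 group was below that in the ABCE1 group. ETF1 to GSPT1 was 3.95 and 3.82 with YAE1 guides, 4.39 and 4.46 with ABCE1 guides, and 3.28 and 3.31 with control guides. Here all 3 groups stood apart, so ETF1 RNA was further in excess of GSPT1 RNA in both treated groups.

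MCTS1 to DENR was 0.196 and 0.194 with YAE1 guides, 0.175 and 0.172 with ABCE1 guides, and 0.161 and 0.165 with control guides. The 3 groups did not overlap in this ratio either, with YAE1 guides highest. LTN1 to NEMF was 3.39 and 2.85 with YAE1 guides, 2.64 and 2.85 with ABCE1 guides, and 2.4 and 2.32 with control guides. Both treated groups were above the controls and they met at 2.85. ZNF598 to ASCC3 was 0.987 and 0.718 with YAE1 guides, 0.656 and 0.6 with ABCE1 guides, and 0.812 and 0.723 with control guides. The YAE1 libraries spanned the controls in this last ratio, and the ABCE1 libraries were below both other groups.

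**Figure D4:**
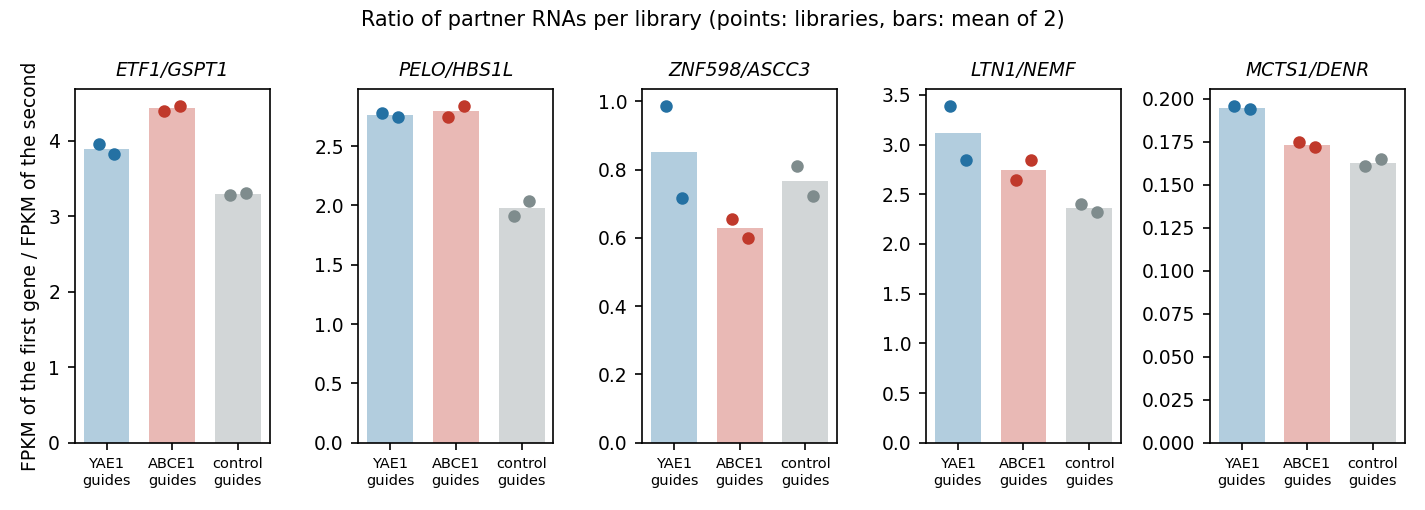
Ratio of the FPKM of 2 partner genes in each library (points) with the mean of 2 libraries (bars from 0), for YAE1 guides, ABCE1 guides and control guides. The PELO/HBS1L and ETF1/GSPT1 ratios are above the controls in all 4 treated libraries.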

How the data were processed

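The deposited table holds FPKM values that the authors computed per gene from strand-specific 150 bp read pairs (1 µg RNA per sample, per the labels). The submitters' processing notes name GRCh37; which programs aligned and counted the reads, on which annotation, is not given in the sources used here. Symbols of the 10 members come from the list that defined the set. Reference tables used here were for mouse and matched 0 of 62492 identifiers, so lists chosen by symbol (other genes of the pathway, paralogs, cell type markers, the targeted genes) were not analysed here. Members and lists were chosen with earlier results of these data known.

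limma 3.58.1 (R 4.3.3) was run on log2(FPKM + 1) of the 12578 genes that averaged 1 FPKM or more over 6 libraries (all 6 libraries in 1 fit, a mean per group, eBayes with trend, Benjamini-Hochberg over all tested genes, threshold 0.05, 3 residual and 3.6 prior degrees of freedom). Changes on this scale understate those of low genes, such as NEMF. Fragment numbers were worked out as multiples of 0.5 that fit every value of a gene (38264 of 38269 genes above 0). Any factor shared by all 6 values of a gene cannot be had back, so these are minimum numbers, and their errors cover counting only. Both steps were tried on simulated data. The simulation for limma gave every gene the same spread beyond counting, and that for fragment numbers held whole numbers only. These data differ in both respects, so the trials do not show how well the steps work here. All 10 members are named in every comparison, and 14 alternatives were run.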

Additional observations from a re-analysis of the deposited data

Results flagged for a closer look

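The effects of YAE1 and ABCE1 guides, each relative to the same control guides, differed for 7 of the 10 factors by the test of the difference itself (limma, adjusted p under 0.05, where 15.3% of tested genes were higher and 18.7% lower). The log2 change with YAE1 guides minus that with ABCE1 guides was -0.58 for NEMF, -0.50 for LTN1, -0.50 for ASCC3, -0.27 for PELO, -0.23 for HBS1L, -0.20 for ETF1 and 0.18 for MCTS1. GSPT1, DENR and ZNF598 did not pass this test. Most of the 7 calls were lost without ABCE1 guides replicate 1 or without ABCE1 guides replicate 2. Far fewer of all tested genes passed in those fits too. Groups of 2 libraries are too small to look for outlying samples.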

How the results depend on the processing

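Of 420 values of a member under an alternative, 353 kept their direction and side of the threshold, 36 lost a call, 21 gained 1 and 10 changed sign. Some alternatives cannot move the estimate, so the 420 values are not separate tests. The sign changes were all in values that were not called, save ETF1 with ABCE1 guides. With centring the changes were -0.01 for ETF1 and -0.05 for NEMF with ABCE1 guides, -0.06 for HBS1L and -0.05 for MCTS1 with YAE1 guides, and 0.03 for GSPT1 between YAE1 and ABCE1 guides. With quantile normalization they were -0.05 for NEMF with ABCE1 guides, -0.05 for HBS1L and -0.02 for MCTS1 with YAE1 guides, and 0.01 for GSPT1 between YAE1 and ABCE1 guides. Without 1 library at a time that last value ran from -0.04 to 0.02, the sign turning without YAE1 guides replicate 1.

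Centring raised the members called with YAE1 guides to 8 (1 higher, 7 lower) against 4. Of the 12578 tested genes, 3014 were then higher and 3124 lower, against 4303 and 2214. With ABCE1 guides centring turned the members' split to 1 higher and 4 lower, against 4 and 2, and quantile normalization to 3 and 4. Among all tested genes 3271 were higher and 3915 lower after centring, against 4715 and 2563. After quantile normalization 3436 were higher and 3571 lower. Of all calls 45.5% were then higher with ABCE1 guides after centring and 49% after quantile normalization, against 64.8%, and with YAE1 guides 49.1% and 52.2%, against 66%. Between YAE1 and ABCE1 guides the share was 56% after centring, against 45.1%. With no filter 3 members and 2091 genes differed between YAE1 and ABCE1 guides, against 7 and 4279, and among the 7047 genes that averaged 5 FPKM or more, 4761 were called with ABCE1 guides, against 7278 of 12578. Leaving out 1 library at a time gave 4 to 7 members and 5691 to 7559 genes with ABCE1 guides, 3 to 6 and 4546 to 6086 with YAE1 guides, and 1 to 7 and 1811 to 3721 between YAE1 and ABCE1 guides. In that last comparison 2 members were called without ABCE1 guides replicate 1 and 1 without ABCE1 guides replicate 2. In these fits the lone library is assumed to vary like the other groups. Where no cause is shown by the alternative itself, the cause was not tested.

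The labels do not say what a library number shares, so the numbers were not taken to pair libraries in the main fit. Deviations of same-numbered libraries correlated at -0.05 to -0.01 between groups. With the replicate block 6 members were called with ABCE1 guides, 5 with YAE1 guides (ASCC3 added) and 6 between YAE1 and ABCE1 guides (MCTS1 lost). Of the 12578 tested genes, 7058, 6264 and 3778 were called in turn.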
